A study of Rattus norvegicus with 8 samples.

Results

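The genes that fold proteins in the endoplasmic reticulum (ER), dispose of those that misfold, and report ER and amino acid stress to the nucleus were followed in rat alveolar type II (ATII) cells with and without an active form of HIF1a. The set was a list of 38 gene symbols. A probe set stood for a gene where the platform annotation gave it that symbol and no other, and 37 of the 38 genes were found among the 18166 genes measured, each with 1 probe set. Sesn2 was not analysed here. ATII cells were freshly isolated from 4 male Sprague Dawley rats of unstated age. Each rat gave 1 well that received AdGFP, an adenovirus for green fluorescent protein, and 1 well that received AdHIF1a, an adenovirus for constitutively active mutant HIF1a, so that 8 arrays formed 4 pairs. Both groups therefore shared 3 h of exposure to adenovirus (multiplicity of infection 20) with 2% fetal bovine serum present, and then 24 h of culture with 5% rat serum on a gel that was 80% collagen and 20% Matrigel. Neither the promoter nor the mutation of the viruses is stated in the sources used here.

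Proteins bound for secretion or for membranes, the surfactant proteins of ATII cells among them, are folded in the ER by chaperones and by enzymes that form disulfide bonds. When unfolded protein accumulates, the sensors Ern1 (IRE1), Atf6 and Eif2ak3 (PERK) raise chaperones and degradation factors, largely through spliced Xbp1 and cleaved Atf6. Eif2ak3 also phosphorylates eIF2 alpha, which lowers general protein synthesis while favouring translation of Atf4. Other eIF2 alpha kinases reach Atf4 without any unfolded protein in the ER, and this shared route is called the integrated stress response. HIF1 is the transcription factor that adapts cells to low oxygen, and the final oxidant of the ER disulfide pathway is oxygen itself.

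The Atf4 arm was higher in the AdHIF1a wells while the ER chaperones were not. Of 14 measured genes of the Atf4 arm, 10 rose and 0 fell, and of 9 chaperones and related lumen proteins limma called 0 in either direction (1 had an unadjusted p under 0.05). Outside the Atf4 arm the increases were those of Foxred2 (14-fold), Ero1a (3.94-fold), Atf6 (1.41-fold) and Ern1 (1.31-fold). Edem1 and Ero1b fell, by 0.54 ± 0.09 and 0.28 ± 0.08 in log2 units. In all, 14 of the 37 genes rose (37.8%) and 2 fell (5.4%), where 8.68% of all 18166 genes were called higher and 11.5% lower, 20.2% in all. Every AdHIF1a well lay above every AdGFP well in 14 of the 37 genes and below in 6, patterns that 10.3% and 12.2% of all genes showed. Each difference is the AdHIF1a value minus the AdGFP value of the same rat on the log2 scale, given ± the standard error (SE) of a paired limma fit across all genes (4 rats). Calls required an adjusted p (Benjamini-Hochberg, across all genes) under 0.05, and rose and fell are used only of called genes.

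**Figure D1:**
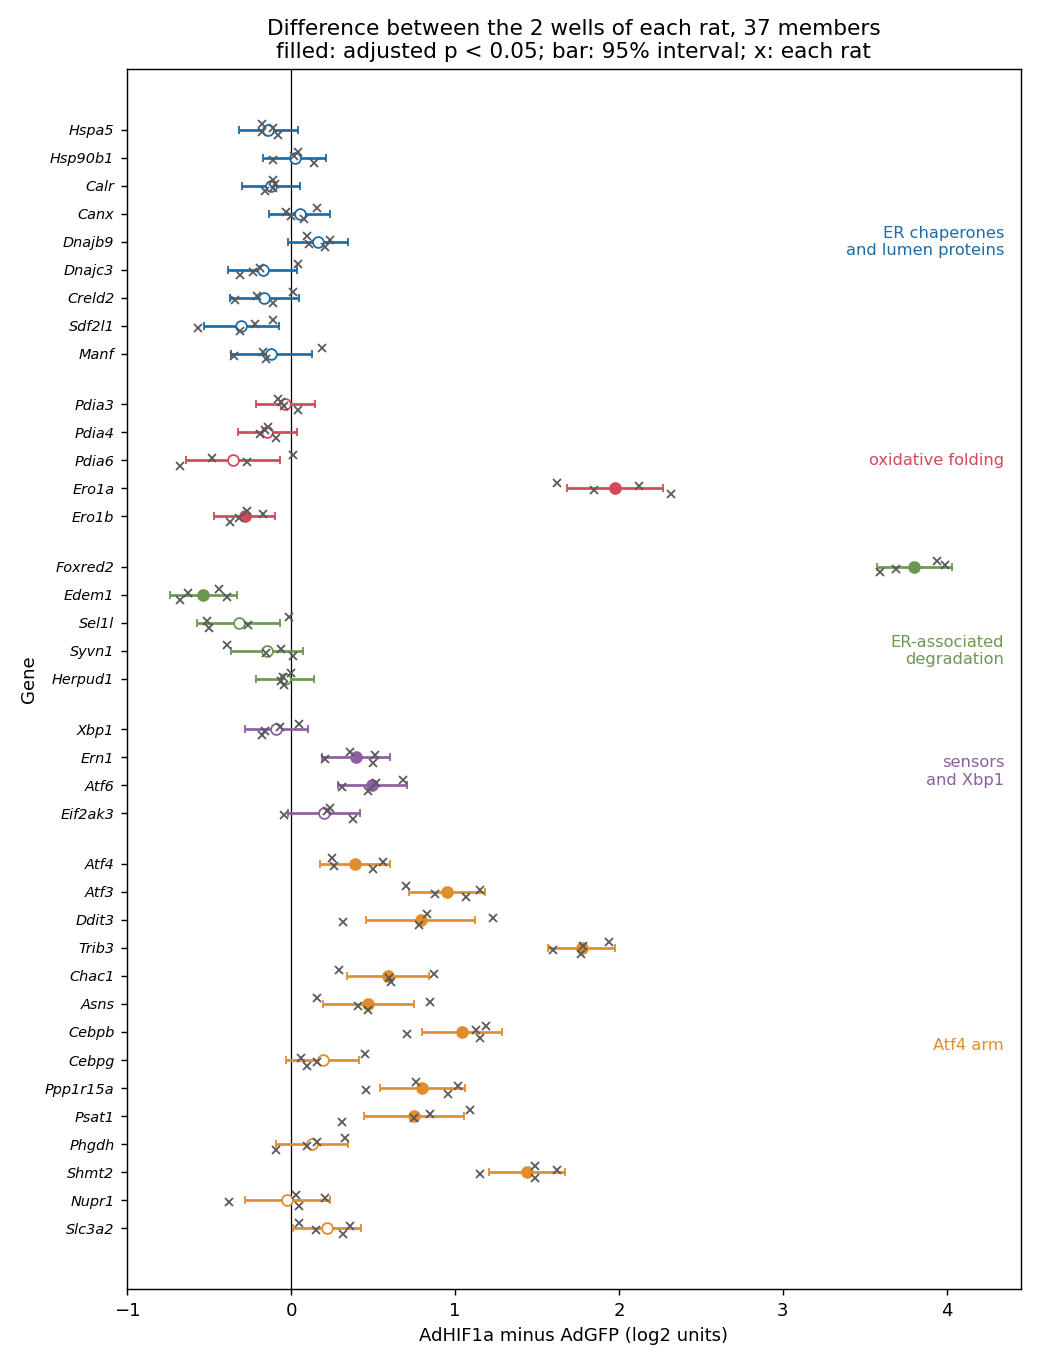
Difference between the AdHIF1a and the AdGFP well, in log2 units, for the 37 measured genes in 5 groups. Circles are the mean of 4 rats, filled where the adjusted p was under 0.05, bars are 95% confidence intervals and crosses are single rats. The chaperones lie around 0 while 10 of 14 genes of the Atf4 arm are filled and to the right of 0, and Foxred2 and Ero1a stand farthest to the right.

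The ATII markers had summed signals on the linear scale, over 10 measured genes, of 17047 to 22963 in the AdGFP wells and of 16749 to 22236 in the AdHIF1a wells. Under these similar sums 3 of the 10 rose and 6 fell, with a median difference of -0.42 in log2 units. The surfactant protein genes Sftpa1 (0.89 ± 0.09), Sftpb (0.69 ± 0.10) and Sftpc (0.29 ± 0.08) rose. Napsa, a protease that processes surfactant proteins (-1.52 ± 0.16), Slc34a2 (-0.82 ± 0.20), Lpcat1 (-0.80 ± 0.14), Lamp3 (-0.78 ± 0.12), the transcription factor gene Nkx2-1 (-0.44 ± 0.08) and Abca3 (-0.39 ± 0.10) fell, and Etv5 was not called. The sum over 8 markers of alveolar type I cells was lower in the AdHIF1a wells, at 7565 to 12104 against 16798 to 22648, and 7 of the 8 fell. Macrophage and leukocyte markers summed to 1292 to 2027 and to 799 to 2063 (2 of 10 fell), and fibroblast and endothelial markers to 236 to 250 against 218 to 243 (8 genes) and to 84 to 96 against 91 to 105 (4 genes), with 0 called in either list by limma (0 and 1 at an unadjusted p under 0.05). Ciliated and club markers summed to 6105 to 6746 against 5553 to 7154 (4 genes, 1 lower). That sum was mostly the club marker Scgb1a1, with mean log2 signals of 12.65 with AdGFP and 12.68 with AdHIF1a, which was not called. The ciliated marker Ccdc39 was the gene that fell, by 0.49 ± 0.09. The part of these markers in the differences of the ER and stress genes was not tested. In bulk RNA, a lower share of a cell type and less RNA per cell cannot be told apart. The rat probe set of Hif1a itself was lower by 0.48 ± 0.08 (SE, 4 rats; limma adjusted p = 0.00624), and as the species of the transgene is unstated it does not check the labels.

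Chaperones bind unfolded chains and hold them in a state that can fold. Hspa5 (BiP), the main Hsp70 of the ER and the usual readout of the unfolded protein response, had signals of 12.57, 12.52, 12.59 and 12.53 in the AdGFP wells of rats 1 to 4. In the AdHIF1a wells of the same rats they were 12.39, 12.41, 12.41 and 12.45. Every AdHIF1a well was below every AdGFP well, but the mean difference of -0.14 ± 0.08 was not past the threshold (95% interval -0.32 to 0.04, limma adjusted p = 0.27), and an increase above 0.04 lay outside the interval. Hspa5 passed as lower in 1 alternative, the trended prior (0.048).

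Calr, a calcium-binding lectin chaperone that holds glycoproteins, gave 12.27, 12.17, 12.27 and 12.21 with AdGFP and 12.16, 12.07, 12.16 and 12.05 with AdHIF1a. Here too the groups did not overlap, and the difference of -0.12 ± 0.08 was not called (interval -0.30 to 0.06, adjusted p = 0.329). Its membrane-bound relative Canx differed by 0.05 ± 0.08 and the ER Hsp90 gene Hsp90b1 by 0.02 ± 0.08, with overlapping wells. The adjusted p in limma was 0.711 and 0.885 for these 2 genes, and both signs turned when each array was centred on its median (-0.03 and -0.06).

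The co-chaperones that recruit Hspa5 to its clients had small differences of opposite sign. Dnajb9 (ERdj4), which also restrains Ern1, was higher in 4 of 4 rats, at 0.10, 0.24, 0.11 and 0.21, with a mean of 0.17 ± 0.08 that did not pass (limma adjusted p = 0.196). Dnajc3, which was first known as an inhibitor of eIF2 alpha kinases, differed by 0.04 in rat 1 and by -0.19, -0.23 and -0.31 in rats 2 to 4. The last 3 genes of the group encode small lumen proteins that ER stress induces in other settings. Creld2 differed by -0.16 ± 0.09. Manf, a secreted factor that is retained through Hspa5, differed by 0.19, -0.17, -0.35 and -0.15 in rats 1 to 4, and its mean of -0.12 ± 0.10 was -0.22 without rat 1 and -0.043 without rat 3. Sdf2l1, a partner of ER co-chaperones, differed by -0.30 ± 0.10. Sdf2l1 was lower in 4 of 4 rats but not called (limma adjusted p = 0.0733). It passed in 2 alternatives, a filter at the median signal (0.0456) and array weights (0.0406). Over the 9 genes the median difference was -0.12, against -0.005 over all genes, and it was 0.04, -0.11, -0.18 and -0.11 in rats 1 to 4.

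Promoters of several of these genes carry the element through which Atf6 and Xbp1 are known to act. The ER stress response element (ERSE) was searched as CCAAT and CCACG with 9 bases between them, on both strands, in RefSeq windows of 250 bases before to 50 after each gene's start (GRCr8). A window existed for 31 of the 38 genes, 30 of them measured, and not for Manf, Pdia3, Pdia6, Ero1a, Ern1, Atf6 or Atf3. The ERSE was found in 8 of the 30, namely Hspa5, Hsp90b1, Calr, Canx, Dnajc3, Creld2, Ero1b and Xbp1. Of the 14564 measured genes with a window 17 held it (0.117%), and of all 33469 windows 22 did (0.0657%). These genes include those from which the element was defined, so its presence is no new observation. Stretches are shown for the chaperones Hspa5, Calr and Hsp90b1 and for Xbp1 and Ero1b, as places where the element lies. Capitals mark the ERSE, which in Calr, Ero1b and the second match of Hsp90b1 reads on the opposite strand.
Hspa5, chr3:38452953-38453011, plus strand: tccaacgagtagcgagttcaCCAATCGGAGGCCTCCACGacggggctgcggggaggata
Calr, chr19:40213117-40213173, plus strand: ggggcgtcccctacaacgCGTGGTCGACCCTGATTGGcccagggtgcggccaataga
Hsp90b1, chr7:23012327-23012489, minus strand: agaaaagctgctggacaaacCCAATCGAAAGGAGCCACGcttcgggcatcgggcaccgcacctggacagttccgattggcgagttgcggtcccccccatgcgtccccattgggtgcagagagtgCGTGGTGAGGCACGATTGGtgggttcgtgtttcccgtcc
Xbp1, chr14:84604538-84604596, plus strand: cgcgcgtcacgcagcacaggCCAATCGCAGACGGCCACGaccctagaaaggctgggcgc
Ero1b, chr17:92941438-92941496, plus strand: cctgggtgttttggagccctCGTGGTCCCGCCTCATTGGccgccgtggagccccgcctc

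Counting the last base before the start as -1, the match began at -43 in Hspa5, -65 in Xbp1, -176 and -72 in Hsp90b1, -224 in Ero1b and -232 in Calr. Of the 9 matches in the 8 genes, 4 overlapped a copy of the HIF core described below. The CCACG of the ERSE shares CACG with that core read on the opposite strand (CACGT or CACGC). Part of such overlap is therefore built into the letters. Of the 8 measured genes with the element, limma called 0 higher and 1, Ero1b, lower, and 1 had an unadjusted p under 0.05. Over all genes 8.68% were called higher and 11.5% lower, so counts this small among 8 genes do not set them apart. The median difference of the 8 was -0.13. Beyond these 8, another 9 of the 14564 measured genes with a window held an ERSE. The phosphatase gene Ppm1l (1.02 ± 0.10) and the stress-induced gene Zfand2a (0.84 ± 0.11) rose among them, 0 fell, and their median was 0.00. Both were picked out after their values were seen.

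The enzymes of oxidative folding divided by gene. The protein disulfide isomerases, which pass disulfide bonds to clients, were not called. Pdia3, the isomerase that works with the lectin chaperones, differed by -0.04 ± 0.08. Pdia4 was lower in 4 of 4 rats without overlap, with 11.40, 11.42, 11.46 and 11.42 in the AdGFP wells and 11.26, 11.26, 11.27 and 11.33 in the AdHIF1a wells. Its difference of -0.14 ± 0.08 was not past the threshold (limma adjusted p = 0.241). Pdia6, which also acts on the ER stress sensors, differed by 0.01 in rat 1 and by -0.48, -0.27 and -0.68 in rats 2 to 4. Its mean of -0.35 ± 0.12 had an adjusted p of 0.0857 and passed with array weights (0.0217), with a trended prior (0.0422) and without rat 1 (0.0311).

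Ero1a and Ero1b encode the oxidases that recharge the isomerases with the help of oxygen, and they went in opposite directions. Ero1a, a known hypoxia-induced gene, had signals of 10.19, 9.93, 9.74 and 9.68 in the AdGFP wells and 11.81, 12.05, 11.59 and 12 in the AdHIF1a wells. The lowest AdHIF1a well was thus 1.40 above the highest AdGFP well. Ero1a rose by 1.98 ± 0.12 (95% interval 1.69 to 2.27, limma adjusted p = 0.000137), or 3.94-fold.

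Ero1b, the form typical of secretory tissues such as the pancreas, had 6.36, 6.36, 6.33 and 6.50 with AdGFP and 6.09, 6.19, 6.01 and 6.13 with AdHIF1a. These groups did not overlap either, in the other direction. Ero1b fell by 0.28 ± 0.08 (limma adjusted p = 0.0458), a call that was lost without rat 1, 2, 3 or 4 in turn (0.0704 to 0.184), with a variance prior from all probe sets (0.0893), with a trended prior (0.0758) and after median centring (0.0573). The difference of Ero1a exceeded that of Ero1b by 1.89, 2.29, 2.17 and 2.69 in rats 1 to 4, a mean of 2.26 ± 0.33 (SD, n = 4).

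**Figure D2:**
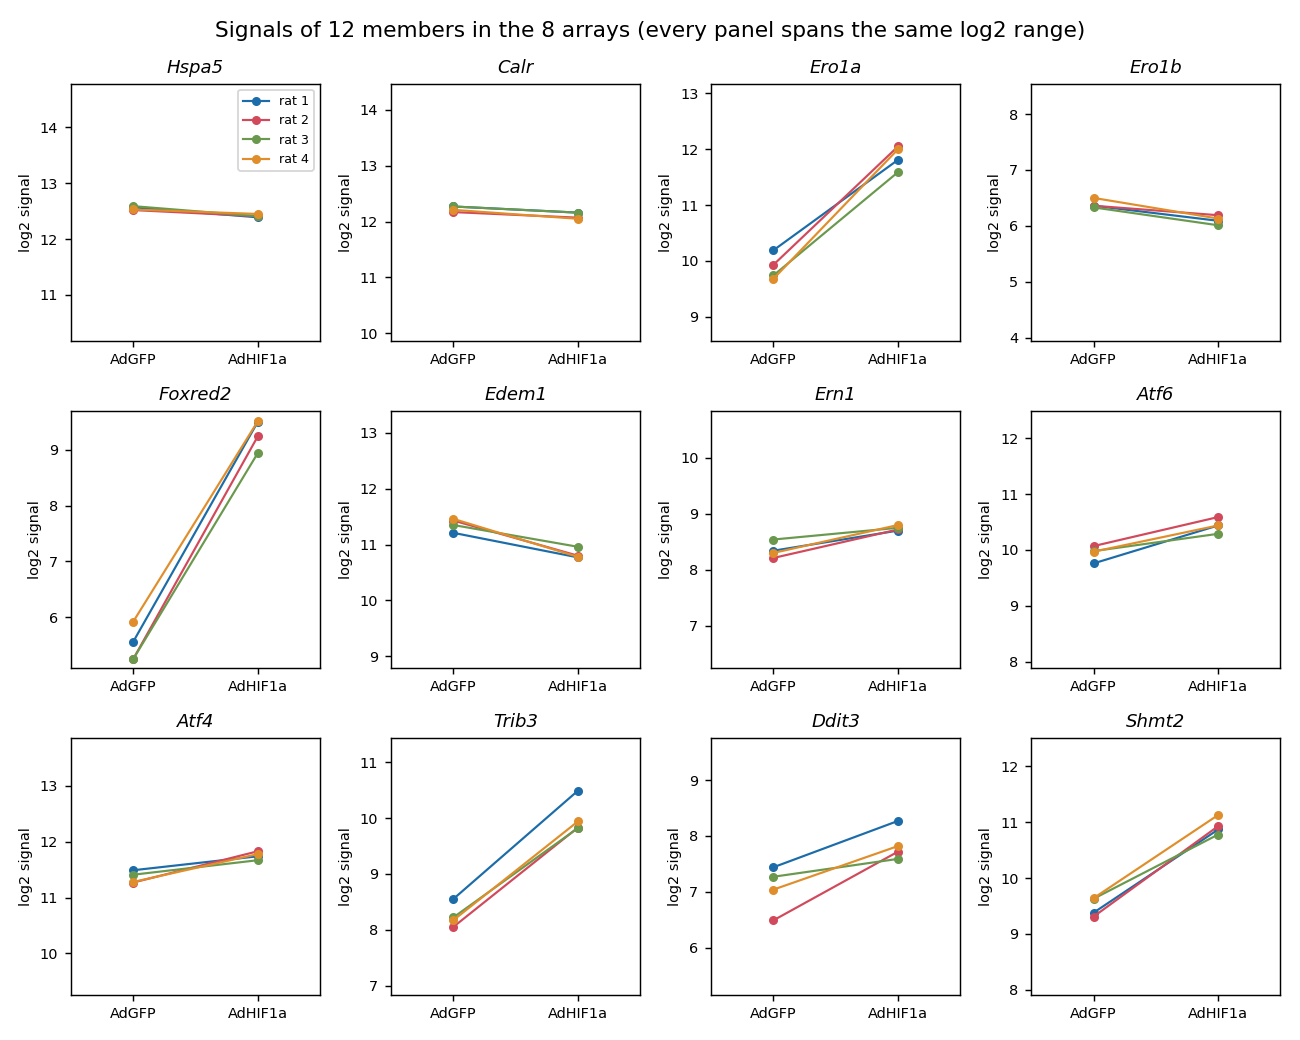
Log2 signals of 12 genes in the AdGFP and the AdHIF1a well of each rat, joined by a line per rat. Every panel spans the same log2 range, so slopes can be compared, but levels of different genes cannot. Foxred2, Ero1a, Trib3 and Shmt2 climb in all 4 rats, Edem1 and Ero1b descend, and Hspa5 and Calr stay within 0.2 of their level.

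Among the genes of ER-associated degradation, which returns misfolded proteins to the cytosol for the proteasome, Foxred2 stood apart. Foxred2 (ERFAD) is an ER flavoprotein that binds the lectin Os9 and the Sel1l ligase complex and helps reduce clients before export. Its signals were 5.56, 5.25, 5.25 and 5.92 with AdGFP and 9.50, 9.24, 8.94 and 9.51 with AdHIF1a. The differences in rats 1 to 4 were 3.94, 3.99, 3.69 and 3.59, an increase of 3.80 ± 0.10 (interval 3.57 to 4.03, limma adjusted p = 3.29e-06). This was the largest difference among the 37 genes and the 11th largest increase among all 18166. The AdGFP signals lay close to the array medians of 5.00 to 5.20, where folds are compressed.

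The other 4 genes of degradation did not rise. Edem1, a lectin that takes mannose-trimmed glycoproteins out of the folding cycle, had 11.21, 11.43, 11.35 and 11.46 with AdGFP and 10.77, 10.80, 10.96 and 10.78 with AdHIF1a. It fell by 0.54 ± 0.09 (limma adjusted p = 0.00572), or 1.45-fold, with no overlap, and this call held in all 14 alternative fits. Sel1l, the scaffold of the main ER ligase, differed by -0.01 in rat 1 and by -0.51, -0.26 and -0.50 in rats 2 to 4, with a mean of -0.32 ± 0.11 that was not called (adjusted p = 0.0806). It passed as lower without rat 1 (0.0293), with a random block (0.0491), with array weights (0.0197) and with a trended prior (0.0415). Syvn1 (HRD1), the ligase that Sel1l holds, differed by -0.39, -0.06, -0.15 and 0.01 in rats 1 to 4, and its mean of -0.15 ± 0.09 was -0.067 without rat 1. Herpud1, a stress-induced part of the same complex, differed by -0.04 ± 0.08, and the adjusted p of these 2 genes was 0.336 and 0.788 in limma.

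The promoter of Foxred2 held many copies of the core of the HIF binding site, ACGTG or GCGTG. On both strands 8 matches were found in its window, where a palindrome counts once per strand. The other 29 genes with a window held 0 to 4 in the fullest single window of each. The core is common, present in 28 of these 30 genes and in 51.8% of the 14564 measured genes with a window. In a single window, 8 or more matches were found in 25 of those 14564 genes (0.172%), Foxred2 among them. That cut is the count of Foxred2 itself, chosen with its difference known, so the rarity is no test. Of the 25 genes 9 were called higher, Foxred2 included, and 1 lower. Of the 7550 measured genes with the core in a window, 841 were called higher and 980 lower. Of all genes, with or without a window, 8.68% and 11.5% were so called. The part of the copies in the difference was not tested. A match is a string of letters, not a binding site. The stretch with the 7 matches that lie before the start is shown, with the core in capitals, because it belongs to the gene with the largest difference of the set, and the window of Ero1a was not among those given.
Foxred2, chr7:111418011-111418155, minus strand: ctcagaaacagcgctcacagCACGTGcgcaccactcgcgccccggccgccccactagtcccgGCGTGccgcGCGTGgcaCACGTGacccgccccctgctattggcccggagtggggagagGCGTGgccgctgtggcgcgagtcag

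The 3 sensors and Xbp1 showed moderate differences. Atf6, the membrane-bound factor that is cleaved in the Golgi under stress, had 9.76, 10.07, 9.98 and 9.97 with AdGFP and 10.44, 10.59, 10.29 and 10.44 with AdHIF1a, and rose by 0.49 ± 0.09 (limma adjusted p = 0.00842). Ern1, the kinase and endonuclease that splices Xbp1, rose by 0.40 ± 0.09 (adjusted p = 0.019), at 0.36, 0.51, 0.21 and 0.50 in the 4 rats. In both genes every AdHIF1a well was above every AdGFP well. The call of Ern1 was lost without rat 2 (0.0965) or rat 4 (0.092) and after median centring (0.099).

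Eif2ak3 differed by 0.20 ± 0.09, with -0.04 in rat 3 and 0.22 to 0.38 in the others, and was not called (limma adjusted p = 0.193). Xbp1 had 11.79, 11.82, 11.88 and 11.87 with AdGFP and 11.84, 11.75, 11.72 and 11.69 with AdHIF1a, a difference of -0.09 ± 0.08 (adjusted p = 0.511). A probe set gives the total of spliced and unspliced Xbp1, and arrays of this kind do not show phosphorylation or cleavage of the sensors.

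In the Atf4 arm the median difference over 14 genes was 0.67, against -0.005 over all genes, and it was 0.575, 0.86, 0.435 and 0.555 in rats 1 to 4. In 10 of the 14 genes every AdHIF1a well was above every AdGFP well, where 10.3% of all genes had that pattern. Atf4 itself, the transcription factor that gives the arm its name and is mainly controlled at translation, had 11.49, 11.27, 11.41 and 11.28 with AdGFP and 11.74, 11.83, 11.67 and 11.78 with AdHIF1a. The increase of 0.39 ± 0.09 (limma adjusted p = 0.0226) was 1.31-fold, and its call was lost without rat 2 (0.112) or rat 4 (0.103), after median centring (0.0925) and with a variance prior from all probe sets (0.0559).

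Several factors known from other settings to act downstream of Atf4 rose. Whether Atf4 or the active HIF1a itself raised these genes was not tested. Trib3, a pseudokinase that binds Atf4 and Ddit3 and damps the response, had 8.55, 8.05, 8.22 and 8.17 with AdGFP and 10.49, 9.83, 9.82 and 9.94 with AdHIF1a. It rose by 1.77 ± 0.09 (limma adjusted p = 4.91e-05), or 3.42-fold, the largest increase of the arm. Atf3, a stress-induced repressor and activator, went from 9.69, 8.91, 8.97 and 8.85 to 10.39, 10.06, 9.85 and 9.92 and rose by 0.95 ± 0.10 (adjusted p = 0.000939). Rat 1 was the highest in both groups of both genes, and its pair still differed by 1.94 for Trib3 and 0.70 for Atf3.

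Ddit3 (CHOP), the factor linked to death under lasting ER stress, had 7.44, 6.49, 7.27 and 7.04 with AdGFP and 8.27, 7.72, 7.59 and 7.82 with AdHIF1a. The groups did not overlap, the differences ranged from 0.32 in rat 3 to 1.23 in rat 2, and the increase was 0.79 ± 0.14 (limma adjusted p = 0.00818). Ppp1r15a (GADD34), the phosphatase subunit that removes phosphate from eIF2 alpha, rose by 0.80 ± 0.11, at 0.76, 1.02, 0.46 and 0.96. Chac1, an enzyme that breaks down glutathione, rose by 0.59 ± 0.11 (adjusted p = 0.00842). Its wells overlapped, since the AdGFP well of rat 1, at 8.24, was above the AdHIF1a wells of rats 3 and 4, at 8.07 and 8.09.

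The C/EBP factors, which pair with Atf4 on DNA, were unequal. Cebpb had 7.42, 7.45, 7.64 and 7.50 with AdGFP and 8.61, 8.58, 8.35 and 8.65 with AdHIF1a, and rose by 1.04 ± 0.10 (limma adjusted p = 0.000811), or 2.06-fold. Cebpg differed by 0.19 ± 0.09 (adjusted p = 0.21), with 0.45 in rat 1 and 0.06 to 0.16 in the others. Nupr1, a small chromatin protein induced by stress, differed by -0.02 ± 0.11, with -0.38 in rat 3 against 0.03 to 0.21 in the other rats.

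Genes of amino acid supply also differed from each other. Shmt2, which turns serine into glycine in mitochondria and feeds the folate pool, had 9.38, 9.31, 9.63 and 9.64 with AdGFP and 10.87, 10.93, 10.78 and 11.13 with AdHIF1a. Every AdHIF1a well was at least 1.14 above every AdGFP well, and the gene rose by 1.44 ± 0.10 (limma adjusted p = 0.000205), or 2.71-fold. Psat1, the second enzyme of serine synthesis, had 9.65, 10.15, 10.38 and 10.42 against 10.74, 11.00, 11.13 and 10.73 and rose by 0.75 ± 0.13, with differences from 0.31 in rat 4 to 1.09 in rat 1. Phgdh, the first enzyme of that path, was below the median of the probe sets in both groups (4.83 ± 0.46 and 4.96 ± 0.28, SD, n = 4) and differed by 0.12 ± 0.09.

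Asns, which makes asparagine and is a classic Atf4 target, rose by 0.47 ± 0.12 (limma adjusted p = 0.0304), at 0.16, 0.85, 0.41 and 0.47. Its call was lost without rat 2 (0.111), rat 3 (0.0846) or rat 4 (0.10) and with a variance prior from all probe sets (0.0738). Slc3a2, the heavy chain that carries several amino acid transporters to the membrane, was higher in 4 of 4 rats (0.05, 0.36, 0.15 and 0.32). Its mean of 0.22 ± 0.09 was not called (adjusted p = 0.133), but it passed with array weights (0.0468) and with a trended prior (0.0369).

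The composite site bound by Atf4 with C/EBP partners was searched as TGATGNAA on both strands. It was found in the windows of Trib3, Chac1, Nupr1 and Herpud1, 4 of 30 genes, and in 3.19% of the 14564 measured genes with a window. Trib3 and Chac1 rose, while Nupr1 and Herpud1 were not called, so the letters occur on both sides. The stretches of the 3 genes of the Atf4 arm are shown to set the 2 that rose beside Nupr1, with the site in capitals, read on the opposite strand in each, and Herpud1 is shown for its ERSE-II element (ATTGG and CCACG with 1 base between them, in 17 of 33469 windows), also in capitals.
Trib3, chr3:161275534-161275574, minus strand: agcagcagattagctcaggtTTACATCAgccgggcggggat
Chac1, chr3:126795944-126795991, plus strand: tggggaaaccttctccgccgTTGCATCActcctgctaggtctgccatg
Nupr1, chr1:190645929-190645976, minus strand: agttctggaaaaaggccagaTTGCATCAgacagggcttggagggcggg
Herpud1, chr19:10614801-10614851, minus strand: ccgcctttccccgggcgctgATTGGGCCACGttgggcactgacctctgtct

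**Figure D3:**
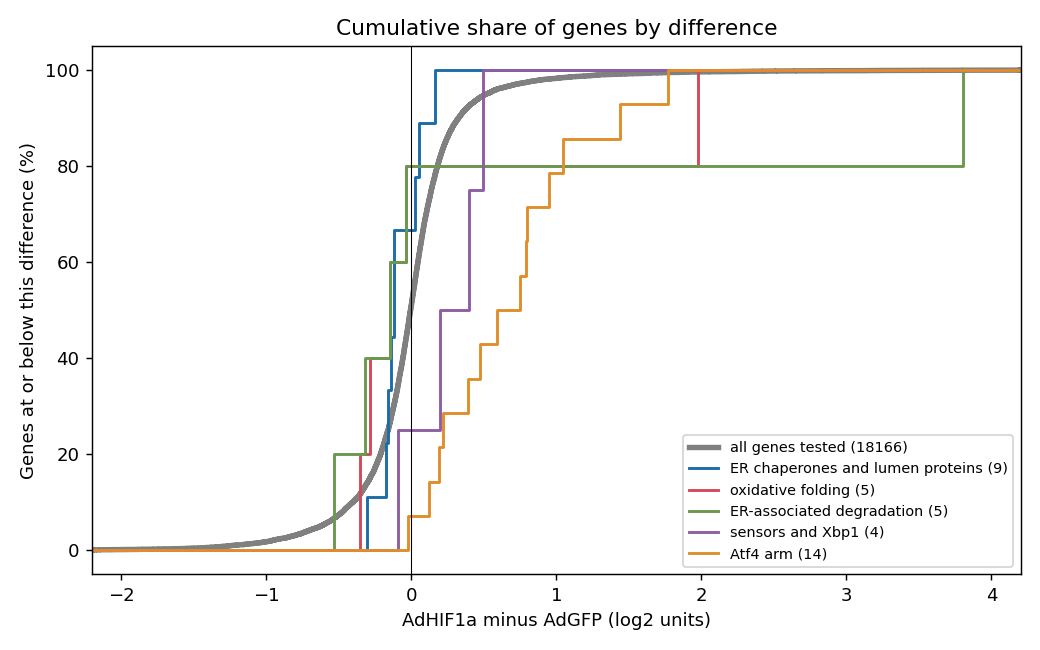
Share of genes, in percent, at or below each difference between AdHIF1a and AdGFP in log2 units, for all 18166 genes in grey and for the 5 groups in colour. The curve of the Atf4 arm runs to the right of the grey curve, that of the chaperones ends at 0.17, and the curves of oxidative folding and of degradation each have 1 gene far to the right, Ero1a at 1.98 and Foxred2 at 3.80.

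A wider set of 161 genes of the same pathways, of which 148 were measured, gave 22 higher (14.9%) and 15 lower calls (10.1%). Over all genes the shares were 8.68% higher and 11.5% lower, beside which the lists below are to be read. The lists were drawn up with earlier results of these data known, so their shares are no independent test. The median difference of the wider set was 0.01. Among 17 further chaperones and glycan-control genes 0 rose and 4 fell (23.5%), with a median of -0.19. The cargo receptor gene Lman1 fell by 0.52 ± 0.10 and Cnpy2, an ER protein that takes part in PERK signalling, by 0.49 ± 0.09, and both calls were lost without rat 2 or rat 4 (limma adjusted p 0.0505 to 0.0571). Among 15 translocon genes 1 rose and 1 fell (6.67% each), both below the shares over all genes. Sec61a2, a form of the channel subunit, rose by 0.52 ± 0.08 and Sec61b, another subunit of the channel, fell by 0.42 ± 0.08, the latter not without rat 4 (0.0535).

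Of 19 further genes of oxidative folding 2 rose and 4 fell. Qsox1, a thiol oxidase of the Golgi and the secretory path, had 9.13, 9.29, 9.47 and 9.29 with AdGFP and 10.11, 10.15, 10.37 and 10.10 with AdHIF1a and rose by 0.89 ± 0.08 (limma adjusted p = 0.00049). Erp29, a redox-inactive relative of the isomerases, rose by 0.60 ± 0.11. Txndc5, an isomerase, fell by 0.72 ± 0.11 (adjusted p = 0.00358) and Prdx4, a peroxiredoxin that uses the peroxide made by the Ero1 enzymes, by 0.58 ± 0.17. The call of Prdx4 was lost without rat 2, 3 or 4 (0.136 to 0.172) and with a variance prior from all probe sets (0.108).

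Of 24 further genes of degradation 1 rose (4.17%) and 2 fell (8.33%), both below the shares over all genes. Derl1, a channel-forming protein, rose by 0.47 ± 0.09, not without rat 4 (limma adjusted p = 0.0626) or after median centring (0.064). Selenos, a selenoprotein of the same machinery, fell by 0.79 ± 0.13 (adjusted p = 0.00666). Erlec1, a lectin, fell by 0.30 ± 0.09 and lost its call without rat 2, 3 or 4 (0.13 to 0.219), without the rat as a block (0.0714), with quantile normalization (0.0533), after median centring (0.0659) and with a variance prior from all probe sets (0.0958).

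Among 13 factors that process the sensors or sit beside them in the ER membrane, the relatives Creb3l1 and Creb3l2, both released from the ER membrane by cleavage, moved in opposite directions. Creb3l2 had 9.78, 10.15, 9.76 and 9.97 with AdGFP and 8.29, 8.03, 8.43 and 7.50 with AdHIF1a and fell by 1.85 ± 0.19 (limma adjusted p = 0.000878), or 3.61-fold. Creb3l1 rose by 0.57 ± 0.11, with overlapping wells, and was not called without the rat as a block (0.0626). A list of 10 further measured genes held eIF2 alpha itself, other kinases, eIF2B subunits, a phosphatase subunit and related genes. It left out Eif2ak3 and Ppp1r15a, given above, of which Ppp1r15a rose. These 10 gave 0 calls in limma, with 1 at an unadjusted p under 0.05 and differences from -0.14 to 0.21.

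The further genes listed as Atf4-responsive differed in part in the direction of the arm. Whether Atf4 or the active HIF1a itself raised them was not tested. Of 9 such factors 6 rose (66.7%) and 1 fell (11.1%), with a median of 0.58. The lipoprotein receptor gene Vldlr, also a known HIF target, rose by 2.83 ± 0.10, from 9.10, 8.43, 8.43 and 8.68 to 11.63, 11.46, 11.27 and 11.60, and the glycogen-binding gene Stbd1 by 1.44 ± 0.14. Ddit4 and Eif4ebp1, which restrain mTOR signalling and cap-dependent translation, were among the others that rose, by 1.44 ± 0.12 and 1.13 ± 0.09, and both were picked out after their values were seen. Jdp2, a repressor of the AP-1 family, fell by 0.44 ± 0.09, a call lost without rat 2, 3 or 4 (limma adjusted p 0.0523 to 0.0807).

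Amino acid synthesis and folate genes gave 5 higher (45.5%) and 2 lower calls (18.2%) among 11. Mthfd1l, the mitochondrial enzyme that makes formate, had 7.49, 7.34, 7.98 and 7.84 with AdGFP and 10.15, 9.72, 9.88 and 9.83 with AdHIF1a and rose by 2.23 ± 0.14 (limma adjusted p = 0.000121), or 4.70-fold. Gpt2, a mitochondrial alanine transaminase, rose by 0.75 ± 0.15. Shmt1, the cytosolic counterpart of Shmt2, fell by 0.65 ± 0.09 (adjusted p = 0.00273). The difference of Shmt2 exceeded that of Shmt1 by 1.96, 2.26, 1.80 and 2.31 in rats 1 to 4. Pycr1, an enzyme of proline synthesis, fell by 0.47 ± 0.12, but not without rat 1, 2 or 4 (0.0546 to 0.124), in the unpaired fit (0.148), in the fit with a random block (0.0966) or with a variance prior from all probe sets (0.0819).

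Of 10 amino acid transporter genes 2 rose (20%) and 0 fell. The glutamine carrier gene Slc1a5 rose by 0.83 ± 0.11 (limma adjusted p = 0.00237). Slc7a5, the light chain that pairs with Slc3a2, rose by 0.34 ± 0.09, a call lost without any 1 of the 4 rats (0.0648 to 0.159), after median centring (0.185) and with a variance prior from all probe sets (0.0707). Among 20 genes of cytosolic tRNA synthetases and tRNA export, 4 rose (20%) and 0 fell, with a median of 0.19. Vars1, the valine enzyme, rose by 1.10 ± 0.09 (adjusted p = 0.000468) and Xpot, which exports tRNA, by 0.43 ± 0.08, the latter not after median centring (0.0803).

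**Figure D4:**
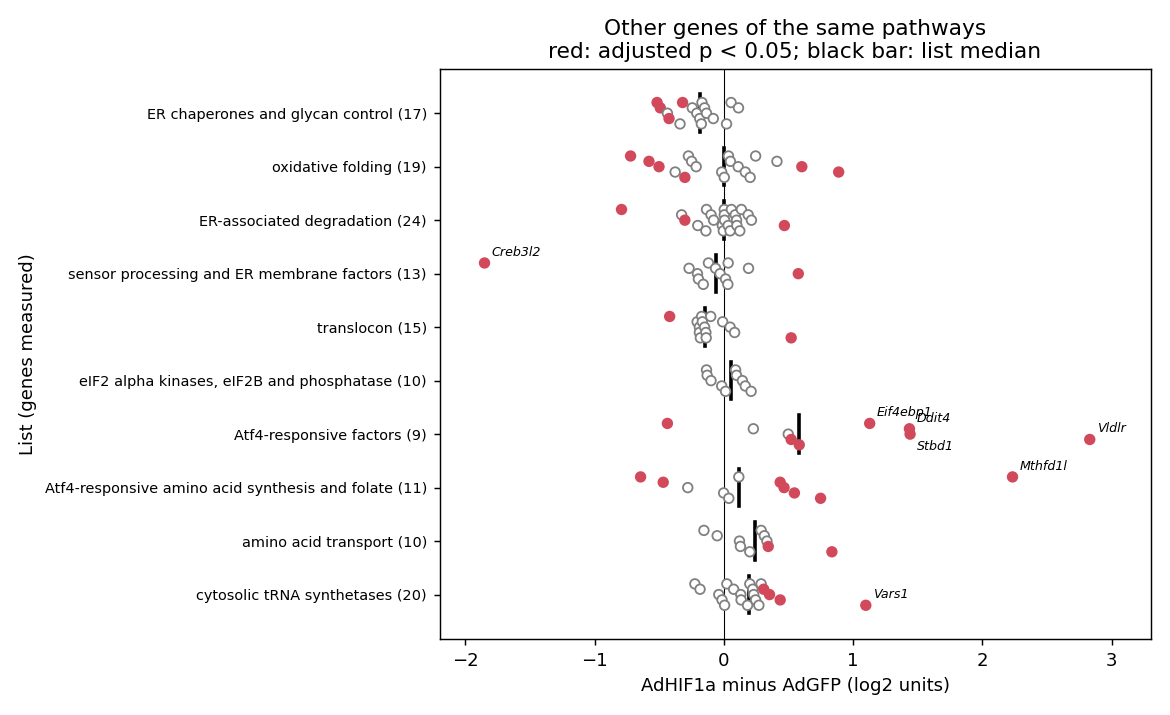
Difference between AdHIF1a and AdGFP in log2 units for 148 other genes of the same pathways in 10 lists, each circle a gene. Red circles had an adjusted p under 0.05, black bars are list medians and genes called beyond 1 log2 unit are named. The red circles of the chaperone list lie to the left of 0 and those of the transport and tRNA synthetase lists to the right.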

How the data were processed

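The authors deposited log2 signals per probe set (36685 on each of 8 arrays), made with Affymetrix Expression Console per the submitters' processing notes. Its algorithm and version and the build were not given in the sources used. That the scale is log2 follows from the range, 1.42 to 13.57. Upper quartiles of 7.62 to 7.68 show a common scale, so a general shift of all transcripts would not be seen. Array medians in rats 1 to 4 were 5.13, 5.00, 5.07 and 5.04 with AdGFP and 5.02, 5.19, 5.16 and 5.20 with AdHIF1a. The AdHIF1a median was thus lower in rat 1 and higher in the other rats. The files hold no detection calls, and the number of arrays limits the precision. No values were rescaled.

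Platform annotation gave 1 symbol to 18511 probe sets, several to 575 and none to 17599. The brightest probe set of a gene was kept. limma 3.58.1 in R 4.3.3 was fitted to the 18166 genes with a fixed term for the rat, and the script was tested on simulated data. The rat is the extraction day, which the series' design pairs. Wells of a rat deviated together (r 0.177 to 0.265 across genes, against -0.22 to 0.0766 between rats). With the variance prior from all probe sets, an alternative chosen after seeing the data, 1032 and 1411 genes were called higher and lower in place of 1576 and 2098. All members were named, and of each further list the 2 largest called changes in each direction. Members, lists, motifs and stretches were chosen with earlier results of these data known. Sequences are RefSeq's (GRCr8). The alternatives were no or a random block, quantile or median scaling, filters on dim genes, array weights, a trended robust prior, mean probe sets, stricter thresholds and leaving out each rat.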

Additional observations from a re-analysis of the deposited data

Results flagged for a closer look

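In 5 of the 74 sets of 4 wells of the measured genes, 1 well stood apart from the other 3 by more than Dixon's 95% limit, which chance gives in about 1 set in 20. Of the AdGFP wells, that of rat 1 was high for Atf3, at 9.69 with the next at 8.97, and for Chac1, at 8.24 with the next at 7.57. It was also the highest of the 4 AdGFP wells for 7 of the 14 genes of the Atf4 arm. Without rat 1 both genes were still called as higher. Of the AdHIF1a wells, that of rat 1 was high for Sdf2l1 (8.06, next 7.73), that of rat 4 for Pdia4 (11.33, next 11.27) and that of rat 3 for Edem1 (10.96, next 10.80).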

How the results depend on the processing

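All 16 called genes of the set kept their sign in 14 alternative fits, and 12 of them kept their call in every one. The exceptions were Ero1b, Ern1, Atf4 and Asns, with the values given above. Of 517 refitted values 481 kept sign and side of the threshold, 12 gained a call and 18 lost one. The count of higher calls, 14, ranged from 11 to 14 when each rat was left out and that of lower calls, 2, from 1 (without rat 2, 3 or 4) to 3. Without the rat as a block the counts were 14 and 2, so the pairing changed neither. Lower calls numbered 1 after median centring, 1 with the variance prior from all probe sets, 1 at an adjusted p under 0.01, 5 with array weights, 4 with a trended prior and 0 at a minimum of 1.5-fold. Of the higher calls, Ern1, Atf4 and Asns did not pass an adjusted p under 0.01. At a minimum of 1.5-fold these genes and Atf6 dropped out. Ern1 and Atf4 were lost after median centring, and Atf4 and Asns with the variance prior from all probe sets. The median difference of the set went from 0.125 to 0.0425 after median centring. That step moved all genes alike, and the median over all genes went from -0.005 to -0.0875. When a rat was left out, the median of the set lay between 0.06 and 0.14. For the further pathway genes the 15 lower calls became 8 with the variance prior from all probe sets and 4 to 20 when a rat was left out (5, 8 and 4 without rats 2, 3 and 4), and the 22 higher calls 16 to 23. Signs turned only for genes near 0 that were not called, Hsp90b1 after median centring (-0.06) or without rat 4 (-0.017, in a range up to 0.067 without rat 3), Canx after median centring (-0.03), and Nupr1 with quantile normalization (0.023), with array weights (0.019) or without rat 3 (0.097, in a range from -0.10 without rat 2). The causes were not tested.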
